A study of Mus musculus with 8 samples.

Results

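The Dlk1-Dio3 miRNAs are the mature miRNAs of an imprinted locus on mouse chromosome 12. They were taken as every miRNA of the plasma or cerebrospinal fluid (CSF) table whose deposited mm10 start lay between 109.54 and 109.76 Mb on that chromosome. This gave 115 of the 1978 miRNAs listed in either table, and all 115 were listed in both. The data are small RNA libraries from exosomes, the vesicles that cells release into body fluids, of adult wild-type mice whose strain is not given in the labels. Both sexes were studied at baseline, without treatment, and under DOCA-salt, in which the mineralocorticoid deoxycorticosterone acetate is given together with salt and blood pressure rises. Plasma and CSF each gave 4 libraries, 1 for each combination of sex and treatment, and all 8 carry batch number 1. The labels give 8 mice but do not tie them, alone or pooled, to libraries, so replicate mice of a combination could not be compared.

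From this locus the maternal chromosome expresses long noncoding RNAs (Meg3, Rian and Mirg), from whose transcripts most of the miRNAs are cut. The paternal chromosome expresses the protein-coding genes Dlk1, Rtl1 and Dio3. The miRNAs are known from embryo, placenta and adult brain. Each hairpin gives a 5p and a 3p mature strand, and as a rule a single strand is kept in an Argonaute protein while the other is degraded. The seed, the stretch near the 5′ end that pairs with target mRNAs, differs between the strands.

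The members lie between positions 109544588 and 109747949 and carry 60 hairpin names, 55 of them with both strands. Meg3 holds 3 members, the stretch between Meg3 and Rtl1 15, the Rtl1 gene 13, Rian 6, the stretch between Rian and Mirg 51, and Mirg 27. Of all members 109 are on the plus strand. The 6 on the minus strand belong to miR-3544, miR-3071 and miR-299b, which lie opposite miR-337, miR-136 and miR-299a. All 115 fall inside an annotated miRNA gene of GENCODE M21. RefSeq sequences (GRCm38.p6) were matched by name for 111 of the 115 members.

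The hairpin of miR-134 is shown because the 5p share of its UMIs lay farthest apart between the fluids. It lies at chr12:109734139-109734209 on the plus strand, and capitals mark the 5p strand and then the 3p strand.
miR-134 hairpin: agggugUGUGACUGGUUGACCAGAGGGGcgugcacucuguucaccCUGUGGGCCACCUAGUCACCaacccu

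The mature strands of 6 hairpins are shown next because both strands of each were measured and the 4 CSF and 4 plasma shares of the 5p strand did not overlap. Sequences run 5′ to 3′, and capitals mark the seed (bases 2 to 8).
miR-134-5p: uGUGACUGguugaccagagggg
miR-134-3p: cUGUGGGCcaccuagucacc
miR-434-5p: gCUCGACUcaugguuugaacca
miR-434-3p: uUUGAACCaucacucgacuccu
miR-770-5p: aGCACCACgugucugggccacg
miR-770-3p: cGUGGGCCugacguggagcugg
miR-341-5p: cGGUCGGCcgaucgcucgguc
miR-341-3p: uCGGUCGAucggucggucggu
miR-379-5p: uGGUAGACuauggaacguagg
miR-379-3p: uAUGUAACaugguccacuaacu
miR-127-5p: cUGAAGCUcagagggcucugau
miR-127-3p: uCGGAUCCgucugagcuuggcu

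Further strands are shown because the member with the highest CSF sum and the results on treatment and sex turn on them.
miR-3072-5p: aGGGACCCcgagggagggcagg
miR-376b-3p: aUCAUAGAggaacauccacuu
miR-154-3p: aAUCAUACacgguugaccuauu
miR-1197-5p: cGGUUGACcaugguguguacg
miR-758-5p: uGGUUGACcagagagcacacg
miR-412-3p: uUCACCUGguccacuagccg
miR-3071-5p: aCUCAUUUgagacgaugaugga

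Within the cluster 9 seeds were shared by 2 members each, 18 members in all. miR-1197-5p and miR-758-5p share GGUUGAC. miR-379-5p shares GGUAGAC with miR-1193-5p. Some members are so alike that counts may be split between them: miR-299a-5p and miR-299b-5p differ by 1 edit, as do miR-376b-5p and miR-376c-5p. miR-379-3p and miR-411-3p differ by 2 edits, as do miR-3070-3p and miR-3070-2-3p.

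Counts are of UMIs (unique molecular identifiers), tags that mark single RNA molecules. Library totals ran from 158572 to 337240 UMIs in plasma and from 237878 to 1082504 in CSF, and the CSF males were the deepest. Of these the cluster held 3410 (baseline) and 5088 (DOCA-salt) UMIs in female plasma, and 2161 and 4874 in male plasma. In CSF it held 3882 and 5485 UMIs in females and 4934 and 6376 in males. The cluster thus made up 1.22%, 1.51%, 1.36% and 1.60% of the plasma libraries (1.42% ± 0.167, SD, n = 4). It made up 1.63% and 1.81% of the female and 0.655% and 0.589% of the male CSF libraries (1.17% ± 0.638, n = 4). The plasma libraries lay close together, while the CSF libraries split by sex. The widest exact 95% Clopper-Pearson interval of a single library ran from 1.31% to 1.42%, in the baseline male plasma, and intervals cover counting error only.

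The miRNAs of striated muscle also took unequal shares of the libraries. The muscle list (miR-1a-3p, miR-133a-3p, miR-133b-3p, miR-206-3p and others, 7 of 7 listed) took 38.7% and 36.3% of the female and 56.6% and 49.1% of the male CSF libraries, against 0.290% to 1.5% of plasma. With these 7 miRNAs left out of the total, the cluster made up 1.43% ± 0.174 of plasma and 2.04% ± 0.832 of CSF, so the order of the fluids turns with the choice of total. Without them the CSF libraries still split by sex, with 2.66% and 2.83% in females and 1.51% and 1.16% in males. The sum of the members after TMM scaling, which sets libraries level on the bulk of their miRNAs, was 8307 ± 1758 CPM (counts scaled to library size) in plasma and 18630 ± 3290 in CSF. The part of muscle RNA in the results below was not tested.

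Most members were scarce. All 115 had at least 1 UMI in each fluid, and 108 had a UMI in all 4 plasma and 95 in all 4 CSF libraries. At least 10 UMIs in all 4 libraries were held by 48 members in plasma and 43 in CSF, and at least 100 by 3 and 7. The sum over 4 libraries stayed under 50 UMIs for 53 members in plasma and 67 in CSF. A count of 0 allowed a share of up to 0.00189% in the shallowest library (3 counts).

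Counts were spread more evenly over members in plasma than in CSF. In plasma miR-127-3p came first with 1595 UMIs, followed by miR-668-3p with 1102, miR-1188-3p with 670, miR-379-5p with 654 and miR-432 with 643. These 5 held 30.0% of the cluster's plasma UMIs. In CSF the most abundant were miR-3072-5p with 2841 UMIs, miR-134-3p with 2419, miR-341-5p with 2105, miR-434-3p with 2033 and miR-379-5p with 1593. They held 53.2% of the cluster's CSF UMIs. Both first places rest on a DOCA-salt female library. Without it miR-3072-5p had 1115 UMIs and came 6th in CSF, behind miR-134-3p with 1998, and miR-127-3p had 735 in plasma, behind miR-668-3p with 762. The leader changed from library to library: miR-668-3p led both baseline plasma libraries and miR-127-3p both DOCA-salt ones. In CSF miR-134-3p led the baseline female and the DOCA-salt male, miR-3072-5p the DOCA-salt female and miR-341-5p the baseline male. The heat map of levels shows the same few bright CSF columns set against a more even plasma block.

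**Figure D1:**
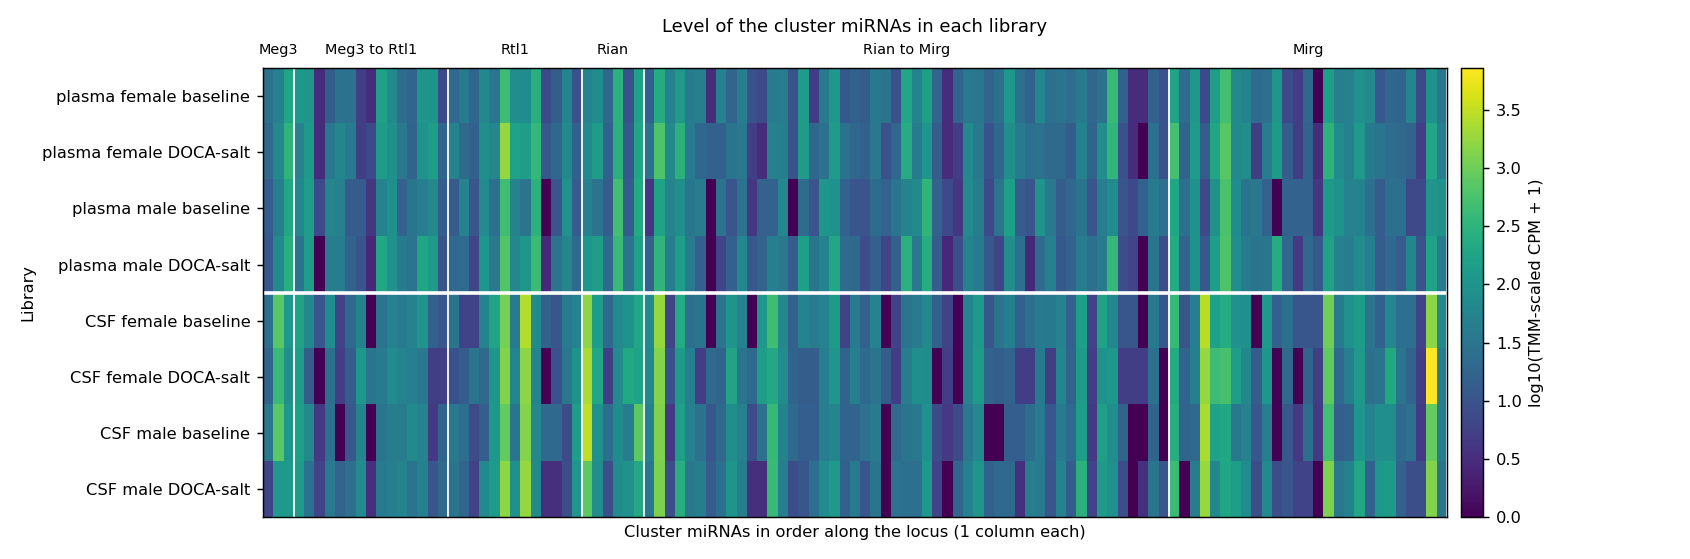
Level of each of the 115 cluster miRNAs (columns, in order along the locus, grouped by host or interval) in each of the 8 libraries (rows), as log10 of TMM-scaled CPM plus 1. The brightest CSF columns are miR-434-3p, miR-341-5p, miR-379-5p, miR-134-3p and miR-3072-5p, which in plasma lie at or below 342 CPM on average.

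The comparison of CSF with plasma asked which members tell the fluids apart. The cluster did not lie on a single side: miR-134-3p, miR-341-5p, miR-434-3p and miR-3072-5p were far higher in CSF, while miR-3070-3p, miR-379-3p, miR-666-5p and miR-432 were lower. Of the 115 members 63 passed the count filter and were tested, and 37 of them (58.7%) passed edgeR's quasi-likelihood test at an adjusted p of 0.05, with 19 higher and 18 lower in CSF. Over all 1146 miRNAs tested the share called was 51.7%, with 26.2% higher and 25.6% lower, so the members' count lies near that of miRNAs at large. The median log2 difference was 0.15 over the tested members and -0.12 over all tested miRNAs. The 52 members that were not tested reached the minimum count in too few libraries. The marker miR-154-3p was among them, with 248 UMIs in plasma but 0 in its baseline male library, and at most 3 in a CSF library. Of the 37, 5 passed the filter through a single fluid, with no library of the other at the minimum count, which favours a difference. They are miR-134-3p through CSF and miR-3070-3p, miR-379-3p, miR-3544-3p and miR-540-5p through plasma, and their fold changes are given as a description. Other called members would also have passed through 1 fluid alone, so the filter favours a difference beyond these 5. Among them miR-666-5p, miR-758-5p and miR-654-5p reached the minimum in 4 plasma libraries and 1 CSF library, and miR-136-3p in 1 and 4.

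miR-134-3p had the largest value. It had 3, 6, 2 and 6 UMIs in plasma (baseline female, DOCA-salt female, baseline male and DOCA-salt male, an order kept below) and 563, 421, 693 and 742 in CSF. Every CSF library stood far above every plasma library, by 7.85 ± 0.52 on the log2 scale (SE). Its partner miR-134-5p, the strand that in rat neurons limits the size of dendritic spines, went the other way. It had 53, 63, 31 and 54 UMIs in plasma and 9, 11, 6 and 17 in CSF, and was lower in CSF by a log2 difference of -1.52 ± 0.36 (adjusted p = 0.00165), again with no overlap of the scaled levels.

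miR-434-3p is one of the members transcribed opposite Rtl1, whose mRNA it cuts in the mouse together with miR-127, miR-136, miR-431 and miR-433. Its counts were 35, 69, 9 and 59 in plasma and 531, 363, 420 and 719 in CSF (log2 difference 4.37 ± 0.50, adjusted p = 1.71e-06). Its partner miR-434-5p, with 37, 79, 17 and 34 UMIs in plasma and 8, 14, 9 and 35 in CSF, did not pass the test (-0.70 ± 0.42, adjusted p = 0.176). Of the other strands opposite Rtl1, miR-127-5p (1.77 ± 0.37) and miR-136-3p (2.76 ± 0.41) were higher in CSF. miR-432 (-2.43 ± 0.35) and miR-433-3p (-1.02 ± 0.42) were lower. So was miR-3071-5p (-1.72 ± 0.48), which lies in an exon of Rtl1 on the same strand as that gene. miR-127-3p, with the highest plasma sum, had 214, 860, 152 and 369 UMIs there and 224, 323, 255 and 641 in CSF. It did not pass the test (0.54 ± 0.45, adjusted p = 0.343), and without the DOCA-salt female plasma library it did, at 1.24 (adjusted p = 0.0261). With scaling by library totals its value was -0.92 (adjusted p = 0.0826).

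In Rian, miR-341-5p had 26, 33, 15 and 60 UMIs in plasma and 309, 553, 931 and 312 in CSF (4.79 ± 0.52, adjusted p = 1.04e-06). miR-370-5p was also higher (2.79 ± 0.50), and miR-1188-3p was lower (-2.40 ± 0.36), with 142, 141, 157 and 230 UMIs in plasma and 13, 17, 22 and 29 in CSF. The ranges of miR-1188-3p in the fluids do not meet. Near the end of Mirg, miR-3072-5p had 44, 91, 33 and 96 UMIs in plasma and 307, 1726, 261 and 547 in CSF. Its log2 difference was 4.29 ± 0.63 (adjusted p = 2.27e-05), and its CSF values were led by the DOCA-salt female. In Meg3, miR-770-5p had 22, 31, 14 and 37 UMIs in plasma and 146, 95, 219 and 49 in CSF (3.14 ± 0.49, adjusted p = 4.08e-05).

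Between Rian and Mirg begins the neuronal miR-379 group, which activity induces in rat neurons and which runs on into Mirg. In that interval miR-1197-3p (3.28 ± 0.41), miR-299a-3p (2.66 ± 0.41), miR-300-3p (2.15 ± 0.37) and miR-379-5p (2.06 ± 0.43) were higher in CSF. miR-379-3p (-3.01 ± 0.47), miR-666-5p (-2.65 ± 0.47), miR-758-5p (-2.48 ± 0.56), miR-654-5p (-2.20 ± 0.42) and miR-487b-5p (-1.82 ± 0.45) were lower. The scaled levels of miR-758-5p and miR-487b-5p overlapped between the fluids, since the baseline male plasma library had 7 and 24 UMIs of them where the other plasma libraries had at least 62 and 168. In the interval before Rtl1, miR-3070-3p had 46, 67, 21 and 69 UMIs in plasma and 3, 1, 1 and 4 in CSF (-3.71 ± 0.48), and miR-3544-3p (-2.47 ± 0.56) and miR-540-5p (-2.03 ± 0.41) were lower too. Within Mirg, miR-369-5p (2.49 ± 0.42) and miR-541-5p (2.29 ± 0.42) were higher, and miR-668-3p was lower at -1.04 ± 0.40 with overlapping groups. The call of miR-668-3p was lost in 5 of the 8 fits that leave out a library, with adjusted p from 0.0621 to 0.111.

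Under TMM every stretch of the locus held members on both sides. The counts of higher and lower members were 1 and 1 of 2 tested in Meg3, 2 and 4 of 10 between Meg3 and Rtl1, and 3 and 3 of 8 at Rtl1. They were 2 and 1 of 5 in Rian, 6 and 6 of 22 between Rian and Mirg, and 5 and 3 of 16 in Mirg. By UMIs, Mirg held 26.4% of the cluster in plasma and 39.8% in CSF, and the stretch between Rian and Mirg 31.1% and 20.5%. Among the tested members the scaled levels of the fluids did not overlap in 32 of 63 (50.8%), against 43.5% of all tested miRNAs.

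**Figure D2:**
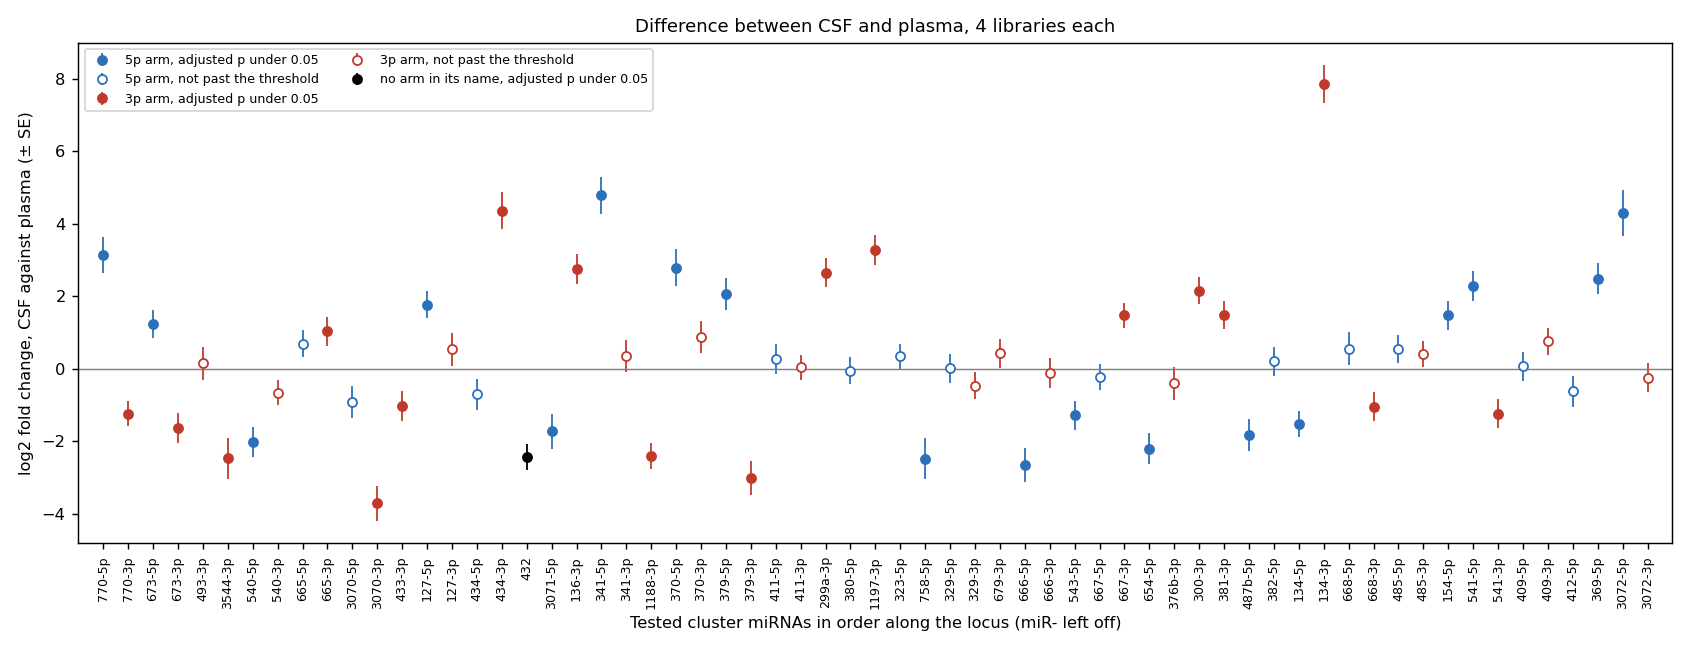
Log2 fold change of CSF against plasma (points, with SE bars) for the 63 tested members in order along the locus, with 5p strands in blue, 3p strands in red and miR-432 in black. Filled points passed an adjusted p of 0.05, and under TMM scaling higher and lower members lie side by side in every stretch of the locus, with miR-134-3p highest at 7.85.

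Scaling moved members from higher to lower. With scaling by library totals the median over all miRNAs was -1.72, so the shift fell on miRNAs at large. Of the members 41 were called, 6 higher and 35 lower, which is not read as a trait of the cluster. The 6 were miR-134-3p (6.39), miR-341-5p (3.23), miR-3072-5p (3.02), miR-434-3p (2.96), miR-1197-3p (1.73) and miR-770-5p (1.69). All 18 members called lower under TMM were called lower under totals as well. The other 13 called higher under TMM were not called, and miR-381-3p, miR-665-3p, miR-667-3p and miR-673-5p had values below 0.

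Markers of other sources are given for comparison. The neuron and brain list (miR-9, miR-124, miR-128 and others, 12 of 12 listed) took 0.219% to 0.372% of plasma and 0.239% to 0.392% of CSF. Under TMM 6 of its 9 tested members were higher in CSF and none lower, against 26.2% and 25.6% of all tested miRNAs. Its calls were not followed under scaling by totals. miR-153-3p of that list was at 0 in 3 libraries. The erythrocyte list took 9.63% to 16.7% of plasma and 1.80% to 4.84% of CSF. For the platelet and leukocyte list the shares were 2.57% to 2.90% and 0.365% to 0.548%. For the liver miRNA miR-122-5p they were 0.208% to 0.404% and 0.0265% to 0.0809%. These shares depend on the total, which muscle miRNAs raise in CSF. Under TMM 2 of 5 erythrocyte miRNAs were higher in CSF (miR-451a and miR-144-3p) and 1 was lower (miR-144-5p). Of 3 platelet and leukocyte miRNAs 2 were lower and 0 higher, and miR-122-5p was not called. miRNAs of other imprinted loci (miR-675, miR-483, miR-335, miR-296 and miR-298) showed 5 higher and 2 lower of 8 tested, also under TMM. Their part in the results was not tested, and fewer vesicles of a source cannot be told apart from less of a miRNA in each.

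The 2 strands of a hairpin come from 1 precursor, so their balance was compared between the fluids. Both strands were tested in 20 hairpins of the cluster and called in 5, and in all 5 they went opposite ways under TMM: miR-770, miR-673, miR-379, miR-134 and miR-541. With scaling by totals miR-673-5p turned to -0.32 (adjusted p = 0.597), and miR-379-5p (0.65) and miR-541-5p (0.81) stayed positive without passing. Over the whole table, 84 of 306 hairpins had both strands called, 35 of them in opposite directions. Of the cluster's 5, miR-134-3p and miR-379-3p passed the count filter through a single fluid, which favours a difference. It is favoured too for miR-673-3p and miR-541-3p, which reached the minimum in 4 plasma libraries and 1 CSF library. The counts of opposite strands are thus a description, and whether the cluster differs from the table in this was not tested. A strand share compares counts within 1 library, so it does not depend on scaling or on muscle miRNAs in the total. In miR-134 the 5p strand made up 94.6%, 91.3%, 93.9% and 90.0% of the hairpin's UMIs in plasma and 1.57%, 2.55%, 0.858% and 2.24% in CSF. Plasma thus held almost only miR-134-5p and CSF almost only miR-134-3p, at 92.5% ± 2.19 against 1.80% ± 0.750 (SD, n = 4 each). The difference of 90.7 percentage points was the largest of all 279 hairpins that had at least 20 UMIs over both strands in every library.

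In miR-434 the 5p strand made up 51.4%, 53.4%, 65.4% and 36.6% in plasma and 1.48%, 3.71%, 2.10% and 4.64% in CSF. The strands were thus near balance in plasma, and CSF held mostly the 3p strand. In miR-770 the 5p share was 19.6%, 16.8%, 17.5% and 19.5% in plasma and 86.4%, 83.3%, 87.6% and 50.5% in CSF. The DOCA-salt male CSF library stood lowest of the 4, yet above all plasma libraries. In miR-341 the 5p share was 45.4% ± 12.1 in plasma and 93.1% ± 2.86 in CSF, and in miR-673 it was 32.1% ± 15.3 and 79.9% ± 9.28. In miR-379 it was 84.8% ± 6.44 and 99.6% ± 0.184, and in miR-127 4.95% ± 1.3 and 10.2% ± 3.12.

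Of the cluster's hairpins 17 met the minimum of 20 UMIs. In 11 of them the 4 CSF and 4 plasma shares did not overlap (64.7%, against 49.8% of all 279 hairpins). For these 11 the exact two-sided permutation test gave p = 0.0286, the smallest that 4 libraries against 4 allow. Adjusted over all 279 hairpins by Benjamini-Hochberg this became 0.0573, so no hairpin of the cluster or elsewhere passed 0.05. The 11 included miR-667, where the 5p share was lower in CSF (59.2% ± 6.16 and 31.8% ± 2.04), and miR-668, miR-541 and miR-3072, where it was higher. In miR-411, miR-329, miR-382, miR-485, miR-409 and miR-370 the shares of the fluids overlapped. The median size of the difference was 23.2 points over the cluster's 17 hairpins and 12.1 points over all 279.

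Summed over the 4 libraries, 40 hairpins of the cluster had at least 50 UMIs in both fluids. The 5p strand was ahead in 23 of them in plasma and in 16 in CSF, and in 14 the leading strand was not the same in both fluids. Among these 14, miR-154 had a 5p share of 18.2% in plasma and 93.8% in CSF. By library, miR-154-3p had 49, 61, 0 and 138 UMIs in plasma and 3, 0, 0 and 3 in CSF, and miR-154-5p had 12, 20, 5 and 18 and 24, 25, 13 and 28. The baseline male plasma library thus held the 5p strand alone, unlike the other 3, and 138 of the 248 plasma UMIs of miR-154-3p came from the DOCA-salt male. miR-136 (56.7% and 8.80%), miR-337 (77.6% and 19.2%) and miR-299a (60.7% and 20.1%) went toward the 3p strand in CSF. The exact Clopper-Pearson intervals of some of the 14 spanned 50%. In plasma these were miR-494 (41.0% to 66.3%), miR-136 (43.2% to 69.4%) and miR-299a (49.5% to 71.2%). In CSF they were miR-540 (30.4% to 50.7%) and miR-666 (31.4% to 53.5%). For the rest of the 14 the interval spanned 50% in neither fluid. These sums carry no test. The same count over all hairpins was not made, so the 14 are not read as a trait of the cluster.

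**Figure D3:**
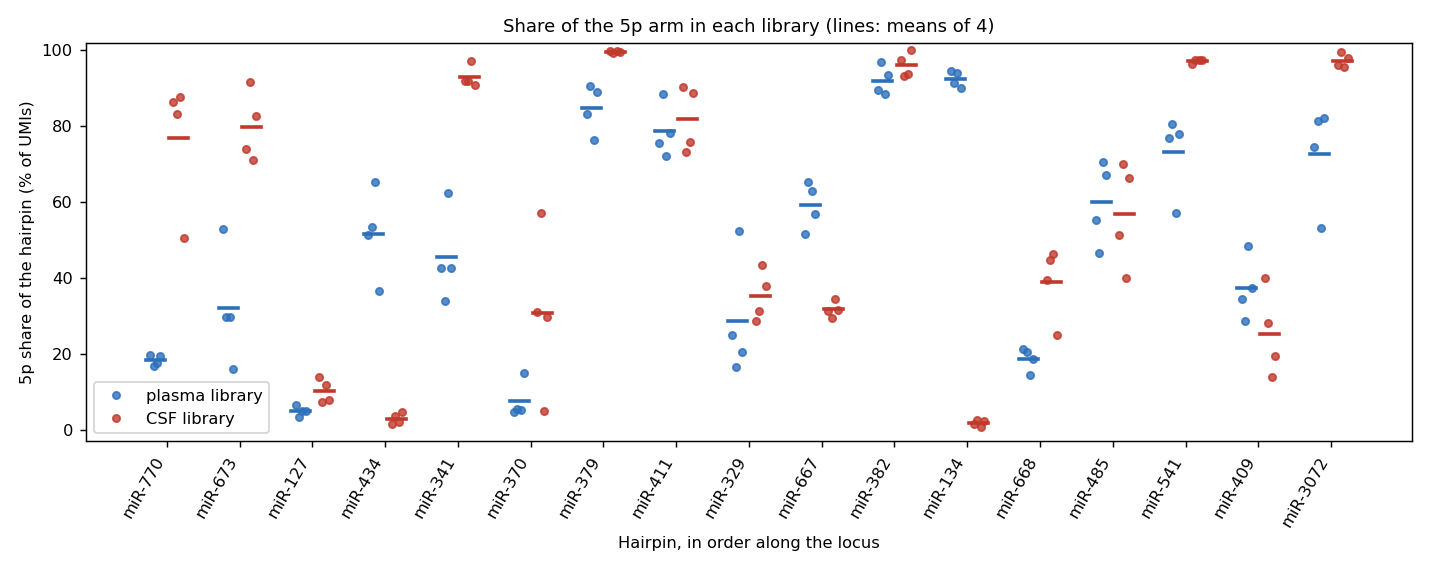
Share of the 5p strand among the UMIs of each of the 17 hairpins (y axis, percent) in every plasma (blue) and CSF (red) library, with lines at the means of 4. miR-134 and miR-434 lie lower in CSF, miR-770, miR-673 and miR-341 lie higher, and 11 of the 17 show no overlap.

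The comparison of DOCA-salt with baseline asked whether the treatment moves the cluster. In plasma 74 members were tested and 1 was called, lower after treatment, against 1.07% of all 1398 miRNAs tested and 0.787% in the lower direction. It was miR-376b-3p, of a family whose seeds are known to be edited in brain, with 30 UMIs at baseline and 13 after DOCA-salt in females and 32 and 12 in males. Both sexes were lower after treatment, by a log2 difference of -1.75 ± 0.45 (edgeR, adjusted p = 0.0428). The call rests on few counts and 1 residual degree of freedom. It was lost without the DOCA-salt female, the baseline male or the DOCA-salt male, and in 4 of the other 6 settings, where adjusted p ran from 0.213 to 0.997. The median log2 difference was 0.29 over the 74 members and -0.03 over all tested miRNAs. Each fit with a library left out had treatment as the single term and set 1 library alone on a side. Without the baseline female library, that was the baseline male library. Members called in that fit are not read as an effect of treatment.

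The next members by p did not pass. miR-154-3p had 49 UMIs at baseline and 61 after DOCA-salt in females, and 0 and 138 in males (log2 difference 2.08 ± 0.68, adjusted p = 0.135). In the male pair its level was at least 25.5-fold higher after DOCA-salt, set against a floor of 3 counts in the baseline library. It passed with DESeq2's size factors in edgeR (adjusted p = 0.0158) and with no count filter (adjusted p = 0.0236). miR-299b-5p, nearly identical to miR-299a-5p, had 24 and 7 UMIs in females and 9 and 3 in males (-2.01 ± 0.60, adjusted p = 0.0911). miR-127-3p had 214 and 860 in females and 152 and 369 in males (1.20 ± 0.50, adjusted p = 0.247). miR-379-5p had 114 and 300 in females and 55 and 185 in males.

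Each sex gave 1 pair of libraries, and ratios within a pair carry no test. In the female plasma pair 7 of 40 members with at least 50 UMIs were more than 2-fold higher after DOCA-salt (background 6.54%) and 1 was lower (3.56%). The 7 were miR-127-3p (3.90-fold, the highest of them), miR-382-5p, miR-381-3p, miR-379-5p, miR-411-5p, miR-541-5p and miR-434-5p, and miR-673-5p was the lower one. In the male plasma pair 10 of 38 were higher (background 17.1%) and 3 lower (6.84%). The 10 were miR-154-3p, miR-758-5p (6.13-fold), miR-666-5p (5.14-fold), miR-341-3p (4.70-fold), miR-487b-5p (4.69-fold), miR-3070-5p, miR-540-5p, miR-434-3p, miR-341-5p and miR-329-3p. No member was on both lists, and of 35 members with enough UMIs in both pairs none was past 2-fold the same way in both sexes (background 1.79% higher and 0.487% lower). Several of the male ratios rest on a low baseline male library: miR-758-5p had 62, 63, 7 and 84 UMIs, miR-666-5p 95, 116, 17 and 163, and miR-487b-5p 187, 168, 24 and 208.

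In CSF 65 members were tested for DOCA-salt and none was called, against 0.193% of all 1036 miRNAs (0.0965% higher and 0.0965% lower). At an unadjusted p under 0.05 there were 7 members and 89 miRNAs in all, and DESeq2 called no member either. The lowest p belonged to miR-770-5p, with 146 UMIs at baseline and 95 after DOCA-salt in females and 219 and 49 in males (-1.74 ± 0.54, adjusted p = 0.128). miR-3072-5p had 307 and 1726 in females and 261 and 547 in males (1.42 ± 0.50, adjusted p = 0.157). In the female CSF pair 5 of 26 members were past 2-fold higher (background 16.8%) and 1 lower (6.11%). In the male pair 4 of 31 were higher (11.3%) and 4 lower (10.4%). Of 24 members with enough UMIs in both CSF pairs none was past 2-fold the same way in both sexes (background 2.92% higher and 1.59% lower). miR-668-5p went opposite ways, from 32 to 105 UMIs in females and from 50 to 25 in males.

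**Figure D4:**
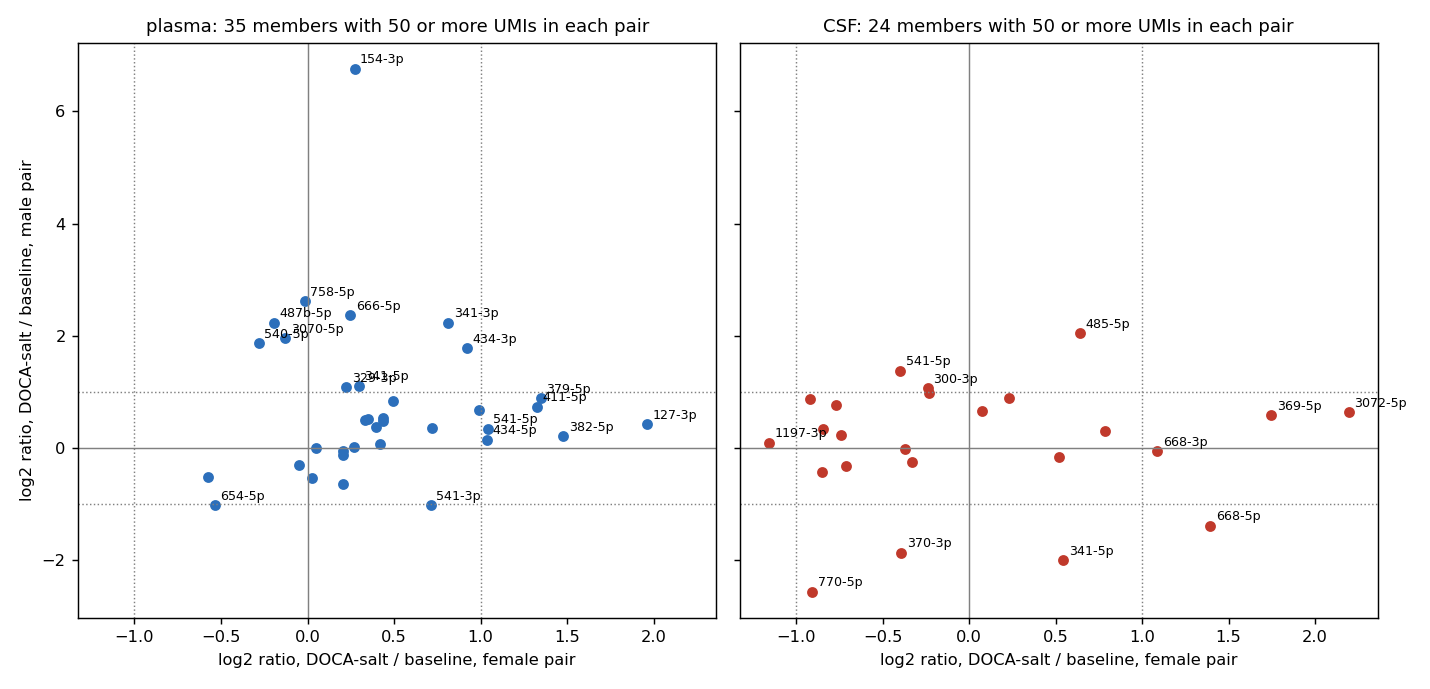
Log2 ratio of DOCA-salt to baseline in the female pair (x axis) and the male pair (y axis) for members with at least 50 UMIs in each pair, 35 in plasma (left) and 24 in CSF (right). Dotted lines mark 2-fold. No point lies past 2-fold in the same direction on both axes, and miR-154-3p is placed with a prior count of 1 because its baseline male library had 0 UMIs.

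Whether DOCA-salt acted unequally in CSF and plasma was tested in 85 members by an interaction term. None was called, nor was any of the 1465 miRNAs (0%), and at an unadjusted p under 0.05 there were 8 members and 113 miRNAs in all. DESeq2 called no member. The lowest adjusted p of a member was 0.478, for miR-770-5p.

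Males were compared with females within each fluid. In plasma none of 74 members was called, against 0.143% of all miRNAs. At an unadjusted p under 0.05 there were 8 members and 103 miRNAs in all, and DESeq2 called no member. Without the DOCA-salt male library the baseline male library stood alone for males, with sex as the single term. That fit cannot tell sex from treatment or from that library, so its calls are not read. In the edgeR fit of all plasma libraries the lowest p values belonged to miR-329-5p (1.18 ± 0.43, adjusted p = 0.404) and miR-434-5p (-1.09 ± 0.45, adjusted p = 0.534).

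In CSF 4 of 65 members were called, 1 higher and 3 lower in males, against 5.21% of all miRNAs (3.19% higher and 2.03% lower). miR-1197-5p had 23 and 33 UMIs in females and 8 and 1 in males and was lower in males (-3.24 ± 0.62, adjusted p = 6.77e-05). miR-3071-5p had 8 and 8 in females and 2 and 3 in males (-2.23 ± 0.64, adjusted p = 0.0202). miR-3072-5p had 307 and 1726 against 261 and 547 (-1.56 ± 0.50, adjusted p = 0.0420). Without the DOCA-salt female library its value was -0.36 (adjusted p = 0.927). miR-412-3p was higher in males, with 3 and 7 against 23 and 46 (2.15 ± 0.61, adjusted p = 0.0153). With sex as the only term, or with read counts, none of the 4 was called, and without any 1 of the CSF libraries at most 1 member was. DESeq2 gave no adjusted p for 3 of the 4 and 0.0675 for miR-3072-5p. The male CSF libraries were deeper and held more muscle miRNA. Scaling by totals moved the median of all miRNAs to -1.20, so the shift fell on miRNAs at large. Under it 27 members were called, all lower in males, which is not read as a trait of the cluster. miR-1197-5p and miR-758-5p, which share a seed, had 65 and 21 UMIs over the 4 CSF libraries and 18 and 216 over the 4 plasma libraries.

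Sequence composition and sequencing depth per molecule were set beside the calls. The median GC content was 50% in the 19 members higher in CSF, 56.8% in the 18 lower and 54.5% in 25 of those not called. Across 62 tested members with a sequence, Spearman's rho between GC content and the log2 difference was -0.03 and Pearson's r 0.06, given as a description over members that share libraries and hairpins. The higher members were 10 of the 5p and 9 of the 3p strand. Reads per UMI, a sign of how often each molecule was sequenced, had a median of 5.13 for members and 5.05 for all miRNAs in plasma, and of 1.54 for both in CSF.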

How the data were processed

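Exosomal small RNA of plasma and CSF was measured in 8 libraries. Per the labels' protocols, a Qiagen miRNeasy Micro extraction fed QIAseq miRNA libraries, which carry UMIs, and an Illumina NovaSeq gave reads of 150 bp from a single end. Per the submitters' processing notes and the labels' protocols, the authors used Cutadapt 2.7, Bowtie 1.3.0 against miRBase, piRNABank and Rfam, the builds mm10 and GRCm38, and edgeR with no version given. The deposited UMI columns hold unscaled counts per mature miRNA, and the deposited read columns count reads, with UMI copies not collapsed. The authors' CPM columns are UMI counts scaled to library size. In CSF the CPM values of miR-206-3p and miR-1a-3p are exchanged, and CPM was recomputed from UMI counts. No member was touched by this, and the sum over the muscle list does not depend on it.

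Members were found by the deposited coordinates. The members, the lists and the tests were chosen with earlier results of these data known. UMI counts were tested with edgeR 4.0.16 (quasi-likelihood test, filterByExpr, TMM) in R 4.3.3, adjusted by Benjamini-Hochberg over all miRNAs tested, at 0.05. The fit of CSF against plasma had a single term, fluid, and 6 residual degrees of freedom. DOCA-salt and sex were fitted together within a fluid (1 degree), so a response unlike between the sexes adds to the spread, and the spread is largely borrowed across miRNAs. The interaction used all libraries (2 degrees). Each combination had 1 library, so p-values measure differences between unlike libraries, not between mice of a combination. Ratios of single pairs used TMM-scaled counts, a prior count of 1 and at least 50 UMIs. Shares of the 5p strand used at least 20 UMIs in every library and scipy 1.17.1. Their p-values were adjusted over all 279 hairpins of the table, the stricter of 2 scopes, chosen after values were seen. Fits were also run on simulated counts, where all libraries shared the same mean profile apart from a set of miRNAs changed by known folds. The unequal muscle share of the fluids was not part of that simulation, so it cannot decide between scalings. The order of libraries wherever 4 values are listed is baseline female, DOCA-salt female, baseline male and DOCA-salt male.

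Named members were the 5 markers miR-127-3p, miR-134-3p, miR-379-5p, miR-434-3p and miR-154-3p, up to 10 per direction of largest change among those called between the fluids, those called elsewhere or else 2 of lowest p per direction, the 5 most abundant per fluid, and both strands of tested hairpins. Alternatives were DESeq2 1.42.0 (size factors and Wald test), scaling by totals, no filter, read counts, other model terms, other minimums and priors, and each library left out in turn.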

Additional observations from a re-analysis of the deposited data

Results flagged for a closer look

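Values of 90 sets of 4 libraries of a fluid were checked for a library far from the other 3, and 10 held one. The rule flags about 1 set in 20 among replicates. Each set here mixes sexes and treatments, and some members were named for large changes, so the 10 are not read against that rate. For levels in TMM-scaled CPM, miR-3072-5p stood at 7239 in the DOCA-salt female CSF library, against 877 to 1523 in the others. miR-668-3p stood at 541 in that same library, against 184 to 243. miR-127-3p stood at 1796 in the DOCA-salt female plasma library, against 451 to 658. In the baseline male plasma library miR-758-5p stood at 21.8, against 131 to 150, and miR-487b-5p at 74.8, against 351 to 394. In the baseline female CSF library miR-758-5p stood at 49.6, against 9.83 to 13.4, on 10 UMIs.

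For shares of the 5p strand, miR-770 stood at 50.5% in the DOCA-salt male CSF library, against 83.3% to 87.6% in the others. miR-341 stood at 97.3% in the baseline male CSF library, against 91.0% to 92.0%. miR-370 stood at 15.1% in the DOCA-salt male plasma library, against 4.60% to 5.43%, and miR-541 at 57.1% in the baseline male plasma library, against 76.9% to 80.5%.

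Of 15 members with at least 50 UMIs in all 4 pairs, 2 had DOCA-salt ratios of opposite sign in the fluids, in both sexes. For miR-770-5p the log2 ratios were 0.44 and 0.53 in the female and male plasma pairs and -0.91 and -2.56 in the CSF pairs. Its difference of effects, CSF minus plasma, was -2.30 ± 0.71 on the log2 scale (edgeR, adjusted p = 0.478). For miR-379-5p the ratios were 1.35 and 0.89 in plasma and -0.37 and -0.03 in CSF, a difference of -1.40 ± 0.63 (edgeR, adjusted p = 0.631). Neither difference passed the test. The share of all miRNAs with such a pattern was not counted, so the 2 members are given as a description.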

How the results depend on the processing

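Among members, counts between CSF and plasma ran from 36 to 43 under every alternative run. With each library left out they ran from 36 to 41, where 42.1% to 48.1% of all miRNAs were called. The members called moved more than their count: scaling by totals shared 24 of the 37 calls, 18 of them lower and 6 higher. Shares of all miRNAs under the other alternatives are not given, so these counts are not read as a trait of the cluster. For DOCA-salt in plasma, where 1 was called, there were 2 with DESeq2's size factors, 2 with no count filter, and 0 with scaling by totals, DESeq2's Wald test, read counts or treatment alone. With a library left out they ran from 0 to 9, with 9 without the baseline female. For sex in plasma, leaving out a library left 1 library alone for a sex, and those counts are not given either. For sex in CSF, where 4 were called, there were 27 with scaling by totals, 2 with no filter, and 0 with DESeq2's Wald test, read counts or sex alone, and 0 to 1 with a library left out. The 27 are not read as a trait of the cluster, since that scaling shifted miRNAs at large. DOCA-salt in CSF and its difference between fluids gave 0 throughout. The value of miR-127-3p between fluids turned to -0.92 with scaling by totals, and that of miR-434-3p for DOCA-salt in CSF ran from -0.62 to 0.19 with a library left out, positive without the baseline female, neither past the threshold. The cause was not tested.

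Members past 2-fold in single pairs moved with the minimum, which sets how many are counted. No share over all miRNAs is set beside the counts at other minimums, so they are not read as a trait of the cluster. In the female plasma pair there were 8, or 15 at 20 UMIs and 5 at 200. In the male plasma pair there were 13, or 23 and 1. In the female CSF pair there were 6, or 1 at 200, and in the male CSF pair 8, or 16 and 4. Hairpins without overlap numbered 11 of 17 (64.7%, against 49.8% of all 279), and 6 of 8 at a minimum of 50 UMIs. The share over all hairpins at that minimum is not given, so the 6 of 8 are not read as a trait of the cluster. The cluster's share was 1.66% of plasma reads against 1.42% of UMIs, and 2.04% of CSF UMIs without muscle miRNAs against 1.17%.

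A paired fit had a block per combination of sex and treatment, which sets each CSF library beside the plasma library of that combination. The labels do not say whether such a pair came from the same mice. This fit called 42 members between the fluids, 36 of them also called in the main fit. Its share of all miRNAs called is not given, so the 42 are not read as a trait of the cluster. Within a fluid no block could be fitted, with 1 library per combination. The sum over 4 libraries was under 50 UMIs for 53 members in plasma and 67 in CSF, which limits the differences that can be detected.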
